A study of Mus musculus with 20 samples.

Results

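The nuclear genes that encode the mitochondrial respiratory chain and ATP synthase were followed in mouse bone marrow. Members were the gene symbols that begin with Nduf, Uqcr, Cox4 to Cox8 or Atp5, together with Sdha, Sdhb, Sdhc and Sdhd. They came to 90 of the 20377 gene symbols in the deposited count table, and the naming rule uses no measured value. By role, 40 belong to complex I (7 core subunits, 29 accessory subunits and 4 assembly factors), 4 to complex II, 8 to complex III, 20 to complex IV and 15 to complex V. The remaining 3 were not placed in a complex. Atp5s and Atp5sl are not structural subunits of the synthase, and a part in assembly was not considered. Cox4nb encodes a protein of an endoplasmic reticulum complex. The rule leaves out cytochrome c, Cyc1 and the subunits encoded on the mitochondrial chromosome, of which the table holds 0.

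Libraries came from male 129S4 mice aged 4 months. Oxymetholone, an androgenic steroid given as OXM diet at 300 mg/kg, or a placebo diet was eaten for 3 months from weaning at 3 to 4 weeks. KSL cells (cKit+ Sca1+ Lin-, stem and early progenitor cells, sorted in 2 passes) were pooled from 5 mice per library and came in 4 groups of 3 libraries: Fancd2-/- on OXM, Fancd2-/- on placebo, wild type on OXM and wild type on placebo. Fancd2 encodes a protein of the Fanconi anemia DNA repair pathway. Erythroblasts (Ter119+ CD71high FSChigh, early red cell precursors) came from 1 wild-type mouse per library, with 3 libraries on OXM and 3 on placebo. Whole bone marrow was 1 library from 5 Fancd2-/- mice and 1 from 5 wild-type mice, both on placebo. Pools do not show the spread between single mice, and how the Fancd2 allele was made is not given in the sources used here.

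Complexes I and II pass electrons from NADH and succinate to ubiquinone, complex III passes them on to cytochrome c, and complex IV hands them to oxygen. Complexes I, III and IV pump protons, and complex V, the ATP synthase, lets the protons flow back through its membrane ring to drive a rotary catalytic head. Blood stem cells are known for low mitochondrial respiration, and early erythroblasts are rich in mitochondria until these are cleared late in red cell maturation.

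Several members are short and have close copies in the genome, which bears on what 51-base reads can count. The 3 genes for subunit c of complex V, Atp5g1, Atp5g2 and Atp5g3, encode the same mature protein. Over that part their coding sequences differ only at silent positions, and the rest of the coding sequences was not compared. The lines that follow give the same 51-base stretch of each gene, from codon 50 of the 75 codons of the mature protein, with the 13 positions at which they differ in capitals.
Atp5g1: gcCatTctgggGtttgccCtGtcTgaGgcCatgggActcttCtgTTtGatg
Atp5g2: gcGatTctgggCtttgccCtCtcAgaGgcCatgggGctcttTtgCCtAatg
Atp5g3: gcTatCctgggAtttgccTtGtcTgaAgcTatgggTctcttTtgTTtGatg
In mm9 these are chr11:95934448-95934498, chr15:102493475-102493525 and chr2:73746680-73746730, all on the minus strand. The Atp5g1 stretch is found at 2 places in the genome, the Atp5g2 stretch at 5 and the Atp5g3 stretch at 1. Over the 225 coding bases of the mature protein, Atp5g1 and Atp5g2 were 84.9% identical, Atp5g1 and Atp5g3 80.0% and Atp5g2 and Atp5g3 78.7%.

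The counts of these 3 genes were far apart. Atp5g3 had 316283 counts over the 20 libraries and none of its 51-base windows was found at a second place. Atp5g1 had 1524 counts with 60.8% of its windows at several places, and Atp5g2 had 48 counts with 100% of its windows at several places. Ndufs5, an accessory subunit of complex I, had 43 counts with 51.4% such windows, and Cox7c, a small subunit of complex IV, had 1471 counts with 68.0%. One repeated coding stretch of each is shown here, Ndufs5 at chr4:123393272-123393322 and Cox7c at chr13:86185426-86185476 of mm9, both on the minus strand.
Ndufs5: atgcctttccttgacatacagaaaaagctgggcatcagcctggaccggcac
Cox7c: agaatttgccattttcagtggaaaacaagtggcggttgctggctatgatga
The first is found at 2 places and the second at 4. Repeats and low counts did not always go together. Cox5b had 51195 counts with 51.4% of its windows repeated, and Cox8b and Cox8c, the muscle and testis forms of a complex IV subunit, had 1 count each with 0% repeated. How the authors treated reads with several matches is not given in the sources used here, so the levels of members with many repeated windows are uncertain and their part in the low counts was not tested. The plot of repeated sequence against counts shows all 90 members.

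**Figure D1:**
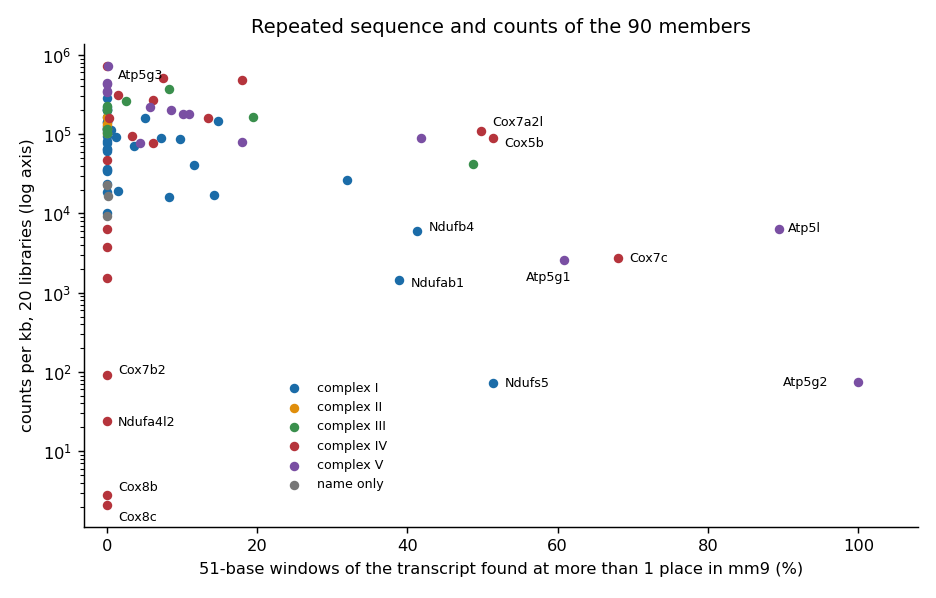
Each point is 1 of the 90 members, coloured by complex. The horizontal axis is the percent of the 51-base windows of its transcript found at more than 1 place in mm9, and the vertical axis is the counts per kilobase of transcript over the 20 libraries, on a log scale. Atp5g2 (100% of windows) and Ndufs5 (51.4%) lie near the bottom, while Cox5b and Cox7a2l lie near the top at about the same percent as Ndufs5.

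Promoters are shown because the members are transcribed from separate loci on many chromosomes. RefSeq (GRCm38.p6) gave a promoter window, 250 bases before to 50 after the start, for 74 of the 90 members. Each window was searched on both strands for GCGCATGCG, a form of the NRF1 site, and 9 of 74 members held it (12.2%), against 2.61% of 17491 protein-coding genes. AAGATGGCG, a form of the YY1 site, was in 10.8% of the members' windows and in 2.14% of all. CCGGAAGT, a form of the ETS site, was in 6.76% of the members' windows and in 5.69% of all, and TCAAGGTCA, the site of estrogen-related receptors, was in 2.70% and 0.377%. A match to these letters is a description of the sequence and does not show binding. Both windows below hold the NRF1 letters in capitals, where 2 overlapping matches on opposite strands run together. Atp5k encodes subunit e of complex V and Cox6a1 the widely expressed form of subunit 6a of complex IV, at chr5:108434350-108434649 and chr5:115348909-115349208 of GRCm38.p6, both on the minus strand.
Atp5k: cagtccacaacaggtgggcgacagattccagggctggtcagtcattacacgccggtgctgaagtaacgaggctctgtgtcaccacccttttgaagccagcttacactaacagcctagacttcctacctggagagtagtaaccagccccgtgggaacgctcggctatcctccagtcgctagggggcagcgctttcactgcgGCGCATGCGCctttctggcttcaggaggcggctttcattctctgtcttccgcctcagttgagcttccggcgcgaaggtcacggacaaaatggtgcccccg
Cox6a1: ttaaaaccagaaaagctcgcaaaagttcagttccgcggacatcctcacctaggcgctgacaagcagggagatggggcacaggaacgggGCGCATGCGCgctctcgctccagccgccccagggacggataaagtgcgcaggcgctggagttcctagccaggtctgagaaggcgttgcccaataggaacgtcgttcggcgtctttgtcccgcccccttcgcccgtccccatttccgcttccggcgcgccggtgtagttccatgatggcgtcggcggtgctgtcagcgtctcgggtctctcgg
Both genes were among the 12 members with the smallest p for a higher level in erythroblasts than in KSL cells with the TMM scaling described below. On the authors' matrix, scaled to equal totals, their log2 differences were -0.041 and 0.181. The other members that hold the NRF1 letters are not set beside them, and a link between the letters and the level was not tested.

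Erythroblast libraries held 17.18 to 20.82 M counts, KSL libraries 10.78 to 121.3 M, an 11.3-fold range, and whole marrow libraries 106.9 M in Fancd2-/- and 100.2 M in wild type. Levels below are counts-per-million (CPM) after TMM scaling, which sets library sizes on the premise that most genes are unchanged between libraries. Between erythroblasts and KSL cells edgeR called 91.0% of all genes, so the premise is not met there. Levels set side by side between these populations depend on the scaling, as given below. Fancd2 had 4.69 to 6.16 CPM in the 6 Fancd2-/- KSL libraries and 12.3 to 16.5 CPM in the 6 wild-type KSL libraries, with no overlap. The 8 KSL marker genes summed to 0.889 to 3.01 CPM in erythroblasts and 2057 to 3318 CPM in KSL cells. The 9 erythroid markers summed to 90803 to 102241 CPM in placebo erythroblasts and 90.9 to 112.8 CPM in wild-type placebo KSL cells. Among them Tfrc, the transferrin receptor that takes up iron in red cell precursors, had 7371 to 8151 CPM and 24.4 to 30.8 CPM in these groups. Tfrc encodes CD71, on which the erythroblasts were sorted, so its level is no independent check of the sort. Neutrophil markers summed to 126783 CPM in Fancd2-/- and 118820 CPM in wild-type whole marrow. One KSL library stood apart for the members. In replicate 3 of the Fancd2-/- placebo group the median member lay 0.54 above its mean over the 12 KSL libraries on the log2 scale, while the other 11 libraries lay between -0.32 and 0.10. In that library short transcripts were also high relative to long ones, the log2 level changing by -0.18 for each doubling in length, against -0.039 to 0.090 in the other libraries. Its stromal marker genes summed to 61.4 CPM, against 13.5 to 24.5 CPM in the other KSL libraries, and its KSL markers to 2057 CPM, against 2500 to 3318 CPM. KSL markers also separated the genotypes on both diets. They summed to 2500 to 2663 CPM in Fancd2-/- and 3086 to 3163 CPM in wild type on OXM, and to 2057 to 2750 CPM in Fancd2-/- and 3005 to 3318 CPM in wild type on placebo. The median transcript of the members is 755.5 bases long, against 2399.5 bases for all genes. After the length slope of each library was removed, the members of that library still had a median of 0.28. EdgeR medians over the members that use it are given with and without it. In the plot by KSL library, replicate 3 of wild-type placebo lies lowest, at -0.32, and has the highest length slope, 0.090.

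**Figure D2:**
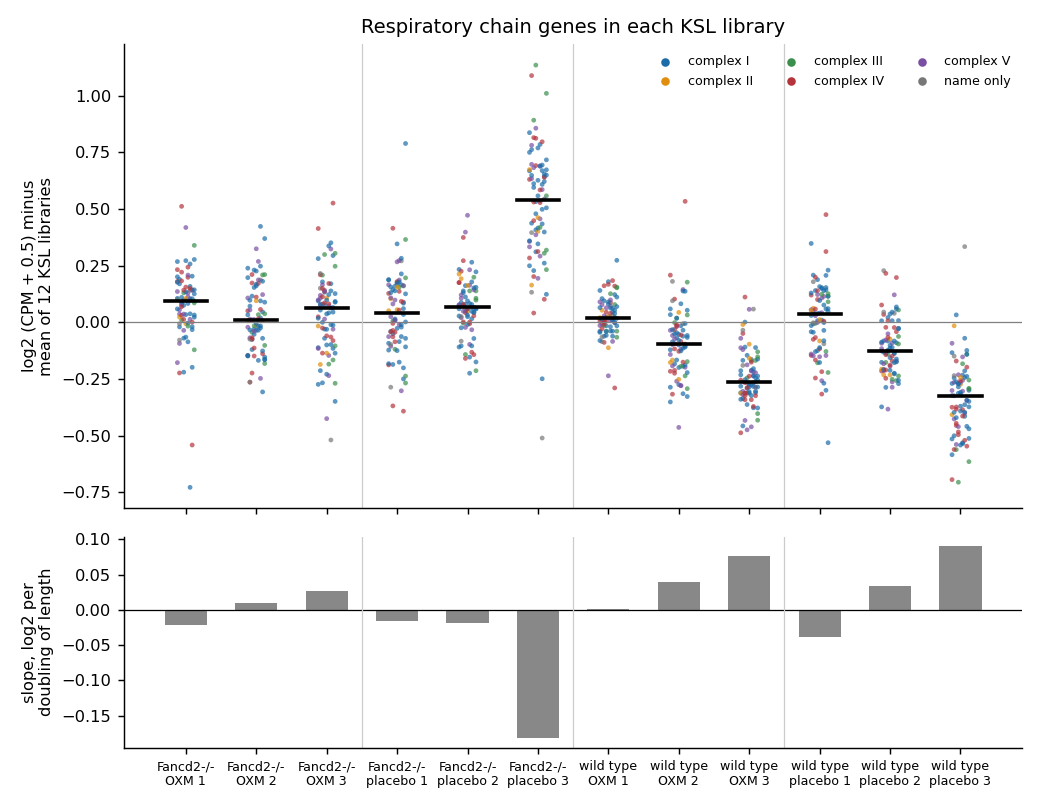
In the upper panel each point is 1 of 84 tested members in 1 KSL library, as log2(CPM + 0.5) minus that gene's mean over the 12 KSL libraries, coloured by complex, and black bars are medians. The lower panel gives each library's slope of all tested genes against transcript length, in log2 units per doubling. Fancd2-/- placebo replicate 3 has the highest median, 0.54, and the lowest slope, -0.18.

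Subunits of complexes IV and V had the highest levels per transcript length in every group. In placebo erythroblasts Atp5b, the catalytic beta subunit of the synthase, came first with 1283 CPM per kilobase, followed by Cox6a1 with 928.2 and by Cox4i1, the common form of cytochrome oxidase subunit 4, with 822.9. In wild-type placebo KSL cells Cox4i1 had 600.9 CPM per kilobase and Atp5b had 581.0. In wild-type whole marrow Cox4i1 had 960.6, Cox6a1 897.4 and Atp5b 880.1 CPM per kilobase. Over all 83 subunits of the 5 complexes, summed levels were 10352, 10021 and 10469 CPM in Fancd2-/- KSL on OXM and 10214, 9524 and 8697 CPM in wild-type KSL on OXM. On placebo they were 10108, 10513 and 14704 CPM in Fancd2-/- KSL and 10415, 9232 and 8179 CPM in wild-type KSL. The placebo groups overlapped, and 1 Fancd2-/- placebo library lay far above the other 11.

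The first comparison asked whether loss of Fancd2 went with a change in these genes in KSL cells of mice on placebo. Of 84 members tested, 82 had a positive log2 difference, Fancd2-/- over wild type, with a median of 0.43 against -0.012 for all 13259 genes tested. In edgeR's quasi-likelihood test with Benjamini-Hochberg adjustment over all genes, 0 members passed adjusted p under 0.05, where 1.28% of all genes did. Without adjustment 52 members had p under 0.05, all higher in Fancd2-/-, which is 61.9% against 19.6% of all genes. DESeq2 called 22 members and limma voom with sample quality weights called 15, all higher, where they called 3.56% and 4.67% of all genes higher. In 34 members all 3 Fancd2-/- libraries lay above all 3 wild-type libraries, where 9.31% of all genes did so. Without Fancd2-/- placebo replicate 3 the median was 0.22, 75 members were above 0, 26 had p under 0.05 and 0 were called, and the groups did not overlap in 35 members, where 17.0% of all genes were higher without overlap. Without wild-type placebo replicate 3 the median was 0.38 and 31 had p under 0.05. Without Fancd2-/- placebo replicate 1 edgeR called 2 members, in a run that called 236 of all genes. With the trend on transcript length removed the median was 0.25, with 33 at p under 0.05. The share of all genes at p under 0.05 is given only for edgeR on all libraries. Some marker lists separated the same placebo libraries and others did not. The erythroid, neutrophil, monocyte and macrophage, B cell and stromal sums overlapped between the genotypes. Of all genes, 9.31% were higher and 15.3% lower in Fancd2-/- without overlap. KSL markers were lower in Fancd2-/- as given above, as were the 5 megakaryocyte markers, with 54.9 to 58.1 CPM in Fancd2-/- and 65.8 to 72.6 CPM in wild type. The 5 T and NK cell markers, of which 1 reached 1 CPM, summed to 110.2 to 174.1 CPM in Fancd2-/- and 74.2 to 107.2 CPM in wild type, and the 4 mast cell and basophil markers to 8.99 to 12.6 CPM in Fancd2-/- and 5.71 to 6.37 CPM in wild type. The part of transcript length, marker levels and depth in the difference was not tested beyond these values. The genotypes shared no sorting pair, and the part of the flow cytometer setting was not tested either.

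The difference ran through all 5 complexes. Complex I had a median of 0.43 with 39 of 39 tested members above 0, complex II 0.41 with 4 of 4, complex III 0.45 with 8 of 8, complex IV 0.45 with 16 of 16 and complex V 0.53 with 14 of 14. The 3 genes not placed in a complex had a median of -0.091, with 1 above 0. Without the library that stood apart the medians were 0.19 in complex I with 35 above 0, 0.28 in complex II with 4 and 0.25 in complex III with 7. They were 0.19 in complex IV with 15, 0.30 in complex V with 13 and -0.010 with 1 for the genes not placed in a complex. Cox7b, a small subunit of complex IV, had the smallest p among members. The gene lies at chrX:103211038-103217789 of mm9 on the plus strand. It had 101.9, 80.7 and 104.3 CPM in Fancd2-/- and 64.3, 65.9 and 58.4 CPM in wild type, a log2 difference of 0.64 ± 0.16 (SE) with an edgeR adjusted p of 0.0610. The groups did not overlap. Cox5b, which binds zinc in complex IV, had 51.7, 53.5 and 73.5 CPM in Fancd2-/- and 42.7, 40.7 and 36.4 CPM in wild type (log2 0.62 ± 0.15, edgeR adjusted p 0.0633). Its groups did not overlap either, and the library that stood apart gave the highest value. Atp5g3, the main source of subunit c counts, had 350.9, 346.4 and 457.3 CPM in Fancd2-/- and 283.3, 278.5 and 246.9 CPM in wild type (0.55 ± 0.14, edgeR adjusted p 0.0633). Without the library that stood apart the log2 differences of Cox7b, Cox5b and Atp5g3 were 0.56, 0.42 and 0.39, with edgeR adjusted p of 0.135, 0.134 and 0.128.

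In some other members the library that stood apart lay close to the other Fancd2-/- libraries, and 3 are shown for that pattern. Sdha and Ndufaf2 had it as well. Atp5f1, subunit b of the synthase stalk, whose locus overlaps Wdr77, had 146.9, 142.8 and 148.9 CPM in Fancd2-/- and 101.6, 99.6 and 109.3 CPM in wild type (0.53 ± 0.15, edgeR adjusted p 0.0830). Uqcrfs1, the Rieske iron-sulfur protein of complex III, had 166.0, 170.5 and 183.5 CPM in Fancd2-/- and 135.8, 124.2 and 134.7 CPM in wild type (0.43 ± 0.13, edgeR adjusted p 0.108). Ndufs1, the largest iron-sulfur subunit of complex I, had 94.8, 94.4 and 100.5 CPM in Fancd2-/- and 78.4, 70.2 and 87.7 CPM in wild type (0.33 ± 0.14, edgeR adjusted p 0.221). By this choice the Fancd2-/- libraries were close together in these 3 genes, and all lay above every wild-type library. Without the library that stood apart their log2 differences were 0.51, 0.38 and 0.29. Some of the most abundant members behaved otherwise. Atp5b had 1139, 1244 and 1902 CPM in Fancd2-/- and 1258, 1061 and 1021 CPM in wild type, so only the third Fancd2-/- library cleared the wild-type range. Cox4i1 had 408.4, 427.5 and 616.8 CPM in Fancd2-/- and 490.1, 420.4 and 313.4 CPM in wild type, with the same pattern. Without that library the log2 differences were 0.12 for Atp5b and 0.060 for Cox4i1. Sdha, the flavoprotein of complex II, had 352.9 ± 11.1 CPM in Fancd2-/- and 305.0 ± 31.5 CPM in wild type (SD, n = 3 each), a log2 difference of 0.24 ± 0.12.

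On the OXM diet, of 84 members, 79 had a positive log2 difference, Fancd2-/- over wild type, with a median of 0.15 against 0.0063 for all genes. The median was 0.088 without wild-type OXM replicate 3, 0.23 without wild-type OXM replicate 1 and 0.088 with the length trend removed. EdgeR called 0 members (0.128% of all genes were called), and DESeq2 and limma voom called 0. Without adjustment 1 member had p under 0.05 in edgeR, which is 1.19% against 5.57% of all genes. The count was 30 with limma voom, which weights libraries by quality, and 11 with edgeR without Fancd2-/- OXM replicate 3. For these alternatives the share of all genes is not given. The edgeR gene, Ndufaf4, encodes a complex I assembly factor, and had 50.8, 57.1 and 44.4 CPM in Fancd2-/- and 43.8, 37.0 and 36.8 CPM in wild type (0.38 ± 0.15, edgeR adjusted p 0.749). In 8 members the groups did not overlap, with Fancd2-/- higher, where 5.02% of all genes did so. For 83 of 84 members the difference on OXM was smaller than on placebo, and 79 were above 0 on both diets. Without the placebo library that stood apart 57 of 84 were smaller on OXM and 73 were above 0 on both diets. The test of the change itself is given with the diet results. The plot of genotype differences by complex shows both diets.

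**Figure D3:**
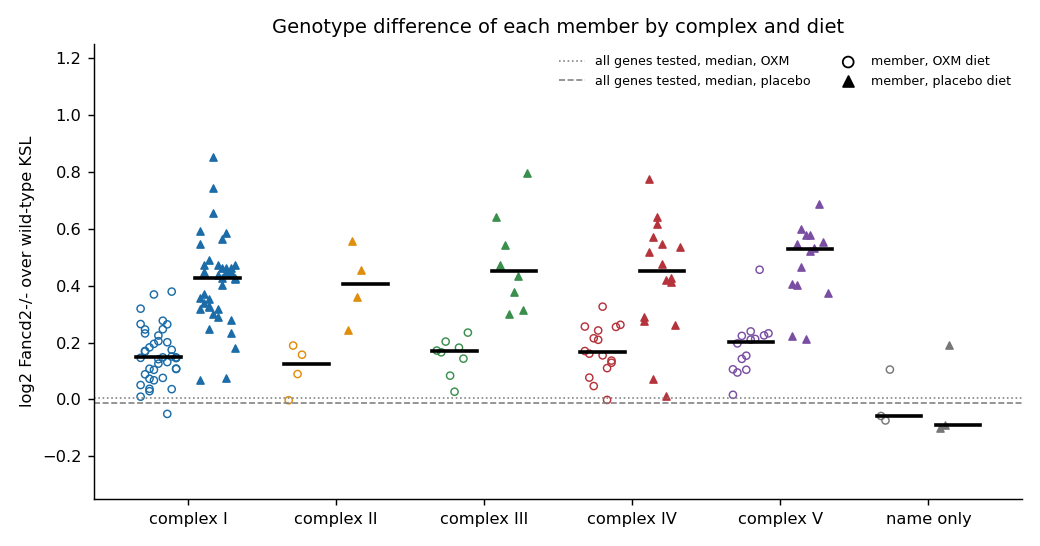
Each point is 1 tested member, as its log2 difference, Fancd2-/- over wild-type KSL, with open circles for OXM and filled triangles for placebo in each complex. Black bars are medians, and the dotted and dashed lines are the medians of all genes tested on OXM and placebo. For the 5 complexes, medians on placebo lie between 0.41 and 0.53, and medians on OXM between 0.12 and 0.20.

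The diet itself was compared within pairs of KSL libraries that shared a flow cytometer setting. In Fancd2-/- KSL cells 81 of 84 members had a negative log2 difference, OXM over placebo, with a median of -0.18 against -0.0092 for all genes. EdgeR called 0 members, with 0% of all genes called. Without adjustment 5 members had p under 0.05, which is 5.95% against 6.81% of all genes. All 5 were lower on OXM, namely Cox4i2, Ndufa9, Uqcrc2, Ndufs3 and Ndufv3. In 20 members the value was lower on OXM in 3 of 3 pairs, where 12% of all genes were. The median over members was 0.031 in pair 1, -0.035 in pair 2 and -0.52 in pair 3, and pair 3 holds the placebo library that stood apart. Without pair 3 the median was 0.023, with 49 of 84 above 0 and 0 at p under 0.05. Without pair 1 or pair 2 it was -0.28 each time, with 19 and 16 members at p under 0.05 and 0 called. The share of all genes at p under 0.05 is not given for these left-out runs. Uqcrc2, a core protein of complex III whose locus overlaps Pdzd9, had 201.1, 208.3 and 179.0 CPM on OXM and 226.6, 224.0 and 272.1 CPM on placebo (log2 -0.31 ± 0.13, edgeR adjusted p 0.688). Its OXM value was lower in every pair, most in pair 3, and without pair 3 the log2 difference was -0.11.

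In wild-type KSL cells 66 of 84 members had a positive log2 difference, OXM over placebo, with a median of 0.054. EdgeR called 0 members (0% of all genes), 0 members had p under 0.05, and 11 were higher in 3 of 3 pairs, where 11.2% of all genes were. Pair medians were -0.015, 0.022 and 0.090. Cox5a, a subunit on the matrix side of complex IV, had the smallest p, with 110.4, 103.3 and 95 CPM on OXM and 86.2, 96.8 and 80.5 CPM on placebo (0.25 ± 0.14, edgeR adjusted p 0.999). The genotype by diet interaction, the OXM difference in Fancd2-/- minus that in wild type, had a median of -0.25. EdgeR called 0 members (0% of all genes), with 0 at p under 0.05 where 3.45% of all genes were, and the median was -0.040 without Fancd2-/- pair 3. Without Fancd2-/- pair 1 or pair 2 it was -0.38 and -0.37, with 14 and 12 members at p under 0.05 and 0 called. The share of all genes is again not given for these left-out runs. In wild-type erythroblasts 81 members were tested and the OXM over placebo median was -0.012, with 0 called by edgeR (0% of all genes) and 0 at p under 0.05. DESeq2 and limma voom likewise called 0 members in each of these diet comparisons. The OXM effect in erythroblasts minus that in wild-type KSL cells had a median of -0.059 over 84 members, with 0 called by edgeR (0.0155% of all genes), DESeq2 or limma voom and 0 at p under 0.05. The plot of OXM differences by pair shows how far pair 3 of the Fancd2-/- group lies from the other 5.

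**Figure D4:**
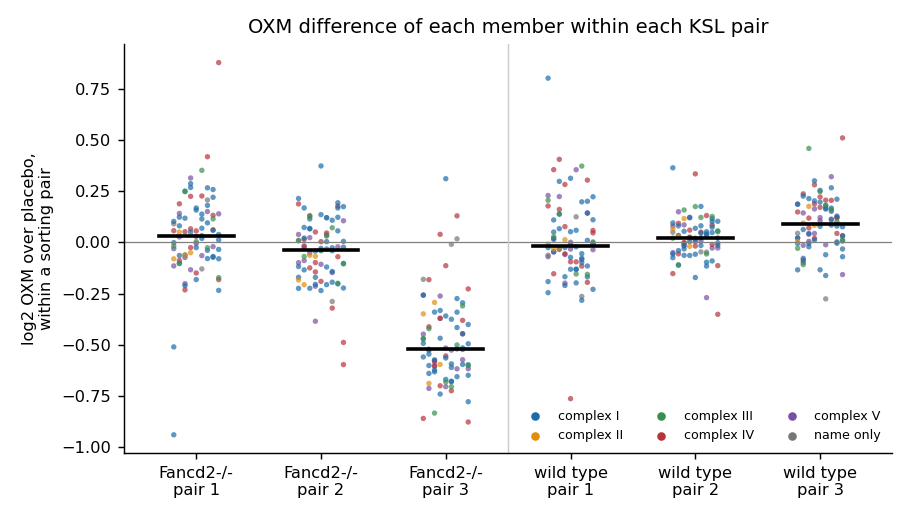
Each point is 1 of 84 members within 1 pair of KSL libraries, as log2 OXM over placebo of CPM + 0.5, coloured by complex, and black bars are medians. Medians run from -0.035 to 0.090 in 5 pairs and reach -0.52 in Fancd2-/- pair 3.

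Erythroblasts and KSL cells of wild-type mice on placebo differed in the shares of the 5 complexes in the summed level. In bulk libraries fewer cells of a type and less RNA per cell cannot be told apart. Complex V took 41.9% ± 0.49 of the summed subunit level in erythroblasts and 37.9% ± 1.2 in KSL cells (SD, n = 3 each). A single gene weighed heavily here. Atp5b alone had 2458 of the 5712 CPM of complex V in erythroblasts and 1113 of 3503 CPM in KSL cells. The shares of the complexes without Atp5b were not computed, so a shift of complex V as a whole is not shown. Complex IV took 18.1% ± 0.55 in erythroblasts and 16.3% ± 0.96 in KSL cells. Complex I took 23.9% ± 0.21 in erythroblasts and 27.5% ± 0.80 in KSL cells, and complex II took 5.48% ± 0.028 in erythroblasts and 7.62% ± 0.56 in KSL cells. The shares of complex III were closest, 10.5% ± 0.14 in erythroblasts and 10.7% ± 0.064 in KSL cells. For each of the 5 complexes the 3 erythroblast values did not overlap the 3 KSL values, and these shares do not depend on the scaling of libraries. With 3 libraries in each group an exact permutation test cannot go below 0.10. In whole marrow the shares were 36.0% in Fancd2-/- and 36.2% in wild type for complex V, and 19.3% in Fancd2-/- and 19.2% in wild type for complex IV.

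EdgeR called 64 of 83 tested members between erythroblasts and KSL cells, where 91.0% of all 12538 genes were called. With TMM scaling 47 members were called higher in erythroblasts and 17 lower, against 37.2% of all genes higher and 53.7% lower. The median over members was 0.36 and that of all genes -0.67, a distance of 1.03 on the log2 scale. The direction of the family depends on the scaling. On the authors' matrix, scaled to equal totals, 3 members were called higher and 62 lower. The member median was then -1.01, against -2.01 for all genes. The summed level likewise was 13619 ± 188 CPM in erythroblasts and 9275 ± 1119 CPM in KSL cells with TMM, and 7454 ± 356 CPM in erythroblasts and 12971 ± 1220 CPM in KSL cells when counts were divided by raw totals. The median of the members lay above that of all genes by 0.98 to 1.42 in every setting run, the authors' matrix included. Of all genes 11370 were called on that matrix, and the shares called higher and lower are not given here or below. With the trend on transcript length removed 73 members were called higher and 5 lower, where 50% of all genes were higher and 41.8% lower. Members are also given below relative to the member median, which the scaling of libraries does not move.

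Members of complexes I, III, IV and V were among those called higher with the smallest p with TMM scaling, Ndufv1 first. In complex V, Atp5b, at chr10:127520362-127527444 of mm9 on the plus strand, had 2425, 2479 and 2470 CPM in erythroblasts and 1258, 1061 and 1021 CPM in KSL cells (log2 1.2 ± 0.12, edgeR adjusted p 7.93e-08). Atp5f1 had 234.7, 241.3 and 237.1 CPM in erythroblasts and 101.6, 99.6 and 109.3 CPM in KSL cells (1.26 ± 0.10, edgeR adjusted p 4.32e-09). Both genes had tight erythroblast values above every KSL value, although on the authors' scaled matrix their log2 differences were -0.16 and -0.11. Cox6a1 had 548.9, 523.5 and 517.7 CPM in erythroblasts and 222.3, 193.3 and 155.6 CPM in KSL cells, and lay 1.18 above the member median. Cox7a2, the common form of a small complex IV subunit, lay 1.38 above that median, with 166.9, 165.1 and 143.9 CPM in erythroblasts and 55.2, 54.2 and 38.2 CPM in KSL cells. Atp5l, subunit g of the synthase, lay 2.14 above it and Cox7c 2.03 above it, but 89.4% and 68.0% of their windows repeat in the genome and their levels were low. In complex V 9 of 14 tested members were called higher and 0 lower, in complex IV 11 and 3 of 15, in complex III 6 and 0 of 8, and in complex II 2 and 2 of 4 with TMM scaling, against 3 members higher and 62 lower over all complexes on the authors' matrix.

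Complex I was split with TMM scaling, where 18 of its 39 tested members were called higher in erythroblasts and 11 lower. With the length trend removed 34 were called higher and 2 lower, and on the authors' scaled matrix 1 higher and 31 lower. The median of all genes on that matrix was -2.01. Ndufv1, the NADH-binding flavoprotein, had 329.7, 331.7 and 343.6 CPM in erythroblasts and 147.0, 130.3 and 119.4 CPM in KSL cells, 1.04 above the member median. Ndufb9, an accessory subunit of the membrane arm, had 397.9, 396.9 and 390.1 CPM in erythroblasts and 165.1, 136.2 and 112.3 CPM in KSL cells, 1.22 above it. Against these, Ndufb5, another accessory subunit of the membrane arm at chr3:32635984-32650481 of mm9 on the plus strand, had 23.1, 27.6 and 25.0 CPM in erythroblasts and 96.8, 88.2 and 79.0 CPM in KSL cells (log2 -1.74 ± 0.12, edgeR adjusted p 2.06e-09). Ndufaf4 had 7.13, 10.1 and 9.27 CPM in erythroblasts and 35.1, 38.6 and 40.4 CPM in KSL cells (-2.03 ± 0.15, edgeR adjusted p 3.80e-09). Ndufaf2, a second assembly factor, had 9.38 ± 0.68 CPM in erythroblasts and 24.5 ± 1.4 CPM in KSL cells. Ndufv3, an accessory subunit beside the NADH site, had 37.3 ± 2.0 CPM in erythroblasts and 95 ± 15 CPM in KSL cells (log2 -1.29), but its log2 difference was 0.037 with the length trend removed. Ndufb5 and Ndufaf4 were called lower under every alternative run, and Ndufaf2 under all but the one that removes the length trend (log2 -0.26, adjusted p 0.0842). No 51-base window of Ndufb5, Ndufaf4, Ndufaf2 or Ndufv3 is found at a second place.

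Atp5sl, a gene not placed in a complex, had the lowest value relative to the member median, -5.23, among members with more than a few counts in erythroblasts. It had 1.95, 2.05 and 2.06 CPM in erythroblasts and 65.3, 67.6 and 51.9 CPM in KSL cells, and was called lower in erythroblasts under every alternative run. Complex II was called in both directions with TMM scaling, 2 members each, but 4 of 4 were called higher with the length trend removed and 4 of 4 lower on the authors' scaled matrix. Sdha had 360.9 ± 5.3 CPM in erythroblasts and 305.0 ± 31.5 CPM in KSL cells, and Sdhc, a membrane anchor, 168.3 ± 1.6 in erythroblasts and 116.4 ± 8.9 in KSL cells. Sdhb, the iron-sulfur subunit, had 86.5 ± 6.4 CPM in erythroblasts and 117.6 ± 19.0 CPM in KSL cells, and Sdhd, the other anchor, 131.2 ± 6.9 in erythroblasts and 165.2 ± 17.0 in KSL cells. Uqcrc2 and Cox5a were not called with TMM scaling. Their log2 differences were -0.069 and -0.044, with edgeR adjusted p of 0.563 and 0.716, and both were called higher with the length trend removed and lower on the scaled matrix. The plot of erythroblasts over KSL cells orders the members.

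**Figure D5:**
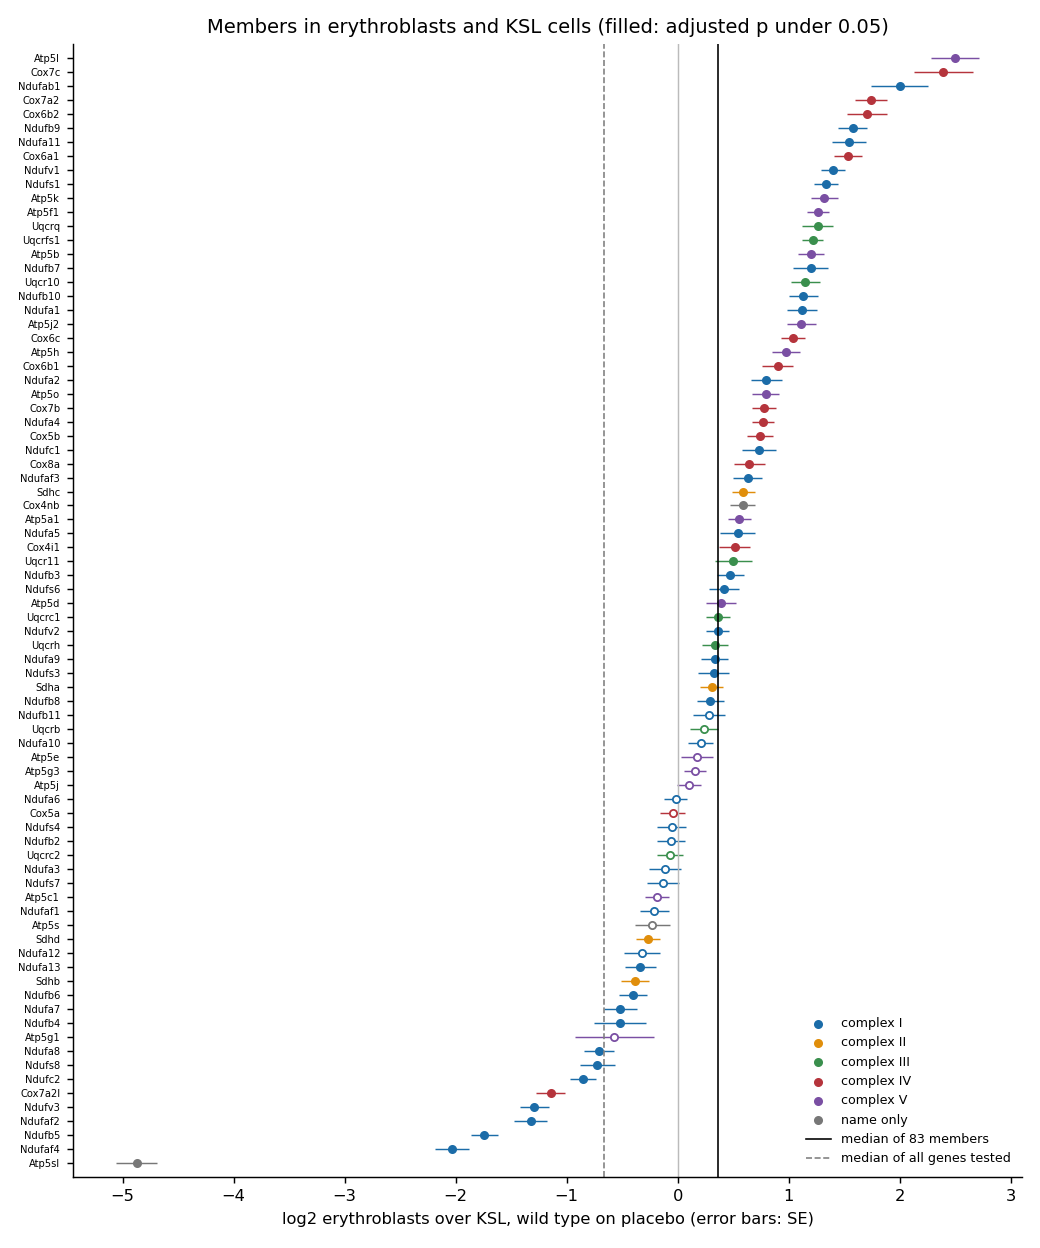
Each point is 1 member, as its log2 difference, erythroblasts over KSL cells in wild-type mice on placebo with TMM scaling, with its SE, coloured by complex and filled where the edgeR adjusted p is under 0.05. The solid line is the median of 83 members (0.36) and the dashed line that of all genes tested (-0.67). Cox4i2 and Cox6a2, with 2 and 0 counts in erythroblasts, lie beyond the left edge and are not drawn. On the authors' scaled matrix the member median is -1.01 and that of all genes -2.01.

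Tissue forms of complex IV subunits were minor in every group, and their shares, computed per kilobase within each pair of forms, do not depend on library scaling. Cox4i2, the lung form induced by low oxygen, made up 1.1% ± 0.16 of subunit 4 in Fancd2-/- KSL on OXM, 1.5% ± 0.32 in Fancd2-/- KSL on placebo, 1.2% ± 0.24 in wild-type KSL on OXM and 1.11% ± 0.14 in wild-type KSL on placebo. These ranges overlapped. Its share was 0.0157% and 0.0113% in erythroblasts on OXM and placebo and 0.0824% and 0.0958% in Fancd2-/- and wild-type whole marrow. In placebo erythroblasts it had 2 counts in all 3 libraries together, against 1273 in wild-type placebo KSL cells, and its CPM was 85.8-fold lower (exact 95% interval for counting error 23.7 to 709). Cox6a2, the heart and muscle form of subunit 6a, had 0 counts in placebo erythroblasts and 232 in wild-type placebo KSL cells, at least 10.4-fold lower against a floor of 3 counts over the group. Its share was highest in whole marrow, 1.52% in Fancd2-/- and 1.74% in wild type, against 0.268% to 0.384% in the KSL groups. The Cox6a2 locus overlaps Itgad on the opposite strand, a leukocyte integrin gene, and the strand of counting is not given in the sources used here. Cox6b2, the testis form of subunit 6b, was the largest of these minor forms, with 18.6% ± 1.1 in placebo erythroblasts and 11.3% ± 1.3 in wild-type placebo KSL cells, without overlap. Cox7a1, the muscle form of subunit 7a, made up 2.02% to 2.29% in the KSL groups and 0.126% ± 0.13 in placebo erythroblasts. Of the 6 members not tested in KSL cells for low counts, Cox8b and Cox8c had 1 count each over the 20 libraries, Ndufa4l2 23 and Cox7b2 49, with Ndufs5 and Atp5g2 described above.

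Whole bone marrow had a single library of each genotype, so no test was possible and only ratios with counting intervals are given. Over 82 members with at least 100 counts in a library the median ratio, Fancd2-/- over wild type, was 0.980, against 1.001 for all 11819 such genes. No member passed 1.5-fold in either direction, where 1.41% of all genes did. The ratios ran from 0.838 to 1.32, with 30 members above 1. Atp5g1 had the highest ratio, 1.32 (exact 95% interval 1.01 to 1.73), from 139 counts in Fancd2-/- and 99 in wild type, and Ndufb4 the next, 1.30 (1.13 to 1.49), from 500 and 362. Both have many repeated windows. The lowest ratio was that of Cox6a2, 0.838 (0.759 to 0.924), from 780 counts in Fancd2-/- and 875 in wild type. Uqcr11, a small subunit of complex III, had 0.852 (0.827 to 0.878), and Uqcrq, another, 0.879 (0.858 to 0.900). The interval lay above 1 in 13 members and below 1 in 34, and the share over all genes was not counted. With many counts an interval leaves out 1 for a small shift, as for Atp5b, 0.926 (0.919 to 0.933). The 2 numbers are therefore no measure of a genotype difference. Cox6b2 had 36.7 CPM in Fancd2-/- and 32.2 CPM in wild type, a ratio of 1.14 (1.08 to 1.2). Intervals cover counting error only.

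Other mitochondrial genes were set beside the members. Among 32 further chain and assembly genes the placebo genotype difference in KSL cells, Fancd2-/- over wild type, had a median of 0.23 with 30 above 0. Among 16 tricarboxylic acid cycle genes it was 0.26 with 16 above 0, among 14 genes of the outer membrane, import and chaperones 0.35 with 14 above 0, and among 76 mitochondrial ribosomal proteins 0.35 with 74 above 0. EdgeR called 0 genes in each list. Among 17 regulators of mitochondrial biogenesis the median was 0.012 with 9 above 0. Cyc1, the cytochrome subunit of complex III that the naming rule leaves out, had 173.9 ± 61 CPM in Fancd2-/- and 122.5 ± 17 CPM in wild type (log2 0.55 ± 0.20, edgeR adjusted p 0.169). Hspd1, the mitochondrial chaperonin, had 97.3 ± 3.3 CPM in Fancd2-/- and 71.6 ± 1.2 CPM in wild type (0.48 ± 0.11, edgeR adjusted p 0.0557). Without the library that stood apart the medians were 0.11 for the chain and assembly genes with 26 above 0, 0.18 for the cycle with 16, 0.24 for the outer membrane list with 12, 0.17 for the ribosomal proteins with 64 and 0.076 for the regulators with 10. The log2 difference was then 0.20 for Cyc1 and 0.44 for Hspd1. Between erythroblasts and KSL cells with TMM scaling, where 37.2% of all genes were called higher and 53.7% lower with a median of -0.67, the ribosomal proteins had 14 called higher and 45 lower of 75, with a median of -0.45. The outer membrane, import and chaperone genes had 4 higher and 9 lower of 14 (median -0.74), the cycle 7 and 6 of 16 (-0.12), and the further chain and assembly genes 14 and 16 of 32 (-0.43). With the length trend removed the ribosomal proteins had 52 called higher and 11 lower and the outer membrane list 8 and 3. The cycle then had 11 and 3, and the further chain and assembly genes 17 and 10. Of all genes 50% were then called higher and 41.8% lower. On the authors' scaled matrix the same 4 lists had 4 higher and 69 lower, 0 and 13, 2 and 13, and 5 and 24. The median of all genes on that matrix was -2.01.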

How the data were processed

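RNA from 20 libraries was sequenced as 51-base reads after oligo(dT) selection (TruSeq kit), per the labels' protocols. Bowtie, mm9 and edgeR are named by the submitters' processing notes. Their versions, the strand counted and what was done with repeated reads were not given in the sources used here. The deposited table holds read counts for 26005 transcript rows. The row with the largest total was kept for each of 20377 symbols, and 6 members had more than 1 row. A second deposited matrix holds scores: its values are counts scaled to a total of 20 M per library then rounded, used only in 1 alternative. Columns of other samples numbered 0. One library named in the design text was matched to the Fancd2-/- placebo sample of closest name, replicate 1.

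Levels were CPM with TMM factors over all 20 libraries, and CPM per kilobase used GENCODE transcript lengths on mm9. Genes passing filterByExpr were tested in R 4.3.3 by the robust quasi-likelihood fit of edgeR 4.0.16 with Benjamini-Hochberg adjustment over all genes, and called at adjusted p under 0.05. Genotype and cell population were tested with group means. No pair of KSL libraries that shared a flow cytometer setting held both genotypes. Diet in KSL cells was tested with a replicate block for sorting pairs, which the design text gives as sharing a flow cytometer setting. Over 13259 genes the deviations of paired libraries from their group means correlated at 0.211, -0.0412 and 0.284 in Fancd2-/- and 0.169, 0.404 and 0.271 in wild-type pairs. Values per library or pair on the log2 scale used CPM + 0.5. Whole marrow had 1 library per genotype and no test, only exact 95% binomial intervals. DESeq2 1.42.0 and limma 3.58.1 served as alternatives, and the fits were tested on simulated data. Other alternatives were RLE size factors, no filter, summed rows, a length trend removed and each replicate left out.

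Members named were up to 12 called members per direction with the smallest p, non-overlapping groups and at least 1 CPM on average, or with fewer than 5 called the 5 with the smallest p per direction, besides fixed core subunits and isoform pairs, of which 1 core subunit is not reported here. In whole marrow they were up to 10 per direction by ratio. Members and lists were chosen with earlier results of these data known. Replicates are separate pools or mice as labelled. Tests within KSL cells used 1 spread over all 12 KSL libraries, taken within groups for genotype and within pairs for diet. Comparisons of erythroblasts with KSL cells joined libraries of single mice and pools of 5 mice in 1 spread. Promoter windows came from RefSeq (GRCm38.p6), and genome coordinates of members and windows are those of mm9. Windows of 51 bases were searched for exact matches in mm9 on both strands.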

Additional observations from a re-analysis of the deposited data

How the results depend on the processing

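The count of members called stayed at 0 under every alternative run for the genotype comparison on OXM, the diet comparisons, the interaction and the difference between populations. On placebo the genotype count of 0 by edgeR became 22 with DESeq2 and 15 with limma voom. It ran from 0 to 2 with 1 library left out, in runs that called 19 to 236 of all genes. For erythroblasts over KSL cells the count was 60 to 64 with 1 library left out, against 64. Of the 84 tested members, the median genotype difference on placebo was 0.217 to 0.558 with 1 library left out, and on OXM 0.088 to 0.234.

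The replicate block changed no call. Without the block for pairs 0 members were called in Fancd2-/- cells, in wild-type cells and for the interaction, with medians of -0.205, 0.048 and -0.275. With the pairing as a random effect 0 members were called between genotypes on either diet, with medians of 0.391 on placebo and 0.146 on OXM.

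Between erythroblasts and KSL cells the sign of members called with TMM turned under 2 alternatives, in 38 on the scaled matrix and 11 with the length trend removed. Among members not called it also turned in 8 with RLE factors, 8 with DESeq2, 5 and 1 without KSL replicates 1 and 2, and 2 without erythroblast replicate 1. Of the members named, on the authors' scaled matrix, where equal totals lower all erythroblast values (median of all genes -2.01), the log2 differences of those called higher were Atp5f1 -0.111, Uqcrfs1 -0.158, Ndufs1 -0.037, Atp5k -0.041, Atp5b -0.163, Cox6c -0.329, Sdha -1.063, Uqcrc1 -1.004, Cox4i1 -0.835, Cox5b -0.623, Atp5a1 -0.815, Atp5o -0.565, Cox6b1 -0.443, Cox8a -0.705, Ndufa4 -0.606 and Atp5g3 -1.212 (not called with TMM). With the length trend removed (median of all genes 0.338) named members low with TMM were above 0: Ndufv3 0.037, Cox7a2l 0.129, Ndufc2 0.207, Ndufa8 0.453, Ndufs8 0.493, Ndufa7 0.443, Ndufb6 0.512, Sdhb 0.884, and the uncalled Uqcrc2 1.219 and Cox5a 1.021. The share of called members that were higher was 73.4% with TMM, 81.5% with RLE factors, 80.3% with DESeq2, 4.62% on the scaled matrix and 93.6% with the length trend removed. Of the named members' other values in this comparison 490 kept direction and side of the threshold. In 10 the direction was kept but the call was lost, and in 6 a call was gained. Calls were lost by limma on the scaled matrix for Ndufv1 (0.034, adjusted p 0.762), Ndufb9 (0.224, 0.176) and Cox6a1 (0.181, 0.241). The same held for Cox7a2 (0.394, 0.0517), Ndufa11 (0.21, 0.291) and Cox6b2 (0.409, 0.111).

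Ndufs5 and Atp5g2, at 43 and 48 counts over the 20 libraries, had too few counts to be tested in KSL cells, with 3 to 7 in each whole marrow library.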

Other observations

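Of 17 regulators of mitochondrial genes in the list 7 were called higher in erythroblasts and 9 lower than in KSL cells of wild-type mice on placebo by edgeR with TMM scaling, where 37.2% of all genes were called higher and 53.7% lower, with a median log2 difference of -0.92 against -0.67 for all genes. Nrf1, which encodes the factor whose site was searched in the promoters, had 520.6 ± 22.7 CPM in erythroblasts and 38.9 ± 0.71 CPM in KSL cells (SD, n = 3 each; log2 3.80 ± 0.11). Pprc1, a coactivator, had 170.8 ± 9.4 CPM in erythroblasts and 71.6 ± 3.7 CPM in KSL cells. Tfam, which packages mitochondrial DNA, had 56.7 ± 2.5 CPM in erythroblasts and 112.4 ± 7.7 CPM in KSL cells. Esrra, the estrogen-related receptor alpha, had 2.09 ± 0.20 CPM in erythroblasts and 20.7 ± 2.6 CPM in KSL cells. Ppargc1a, a coactivator of both factors, had 0 CPM in all 3 erythroblast libraries and 1.44 ± 0.27 CPM in KSL cells. These genes were chosen after their values were seen. Between Fancd2-/- and wild-type KSL cells on placebo Nrf1 had 40.9 ± 4.6 CPM in Fancd2-/- and 38.9 ± 0.71 CPM in wild type, and Tfam 130.1 ± 16.3 CPM in Fancd2-/- and 112.4 ± 7.7 CPM in wild type, with edgeR adjusted p of 0.718 and 0.347.

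Atpif1, the natural inhibitor of ATP hydrolysis by the synthase, is not a member by name. It had 1258 ± 52 CPM in erythroblasts and 144.1 ± 31.0 CPM in KSL cells (log2 3.18 ± 0.15 with TMM scaling, edgeR adjusted p 1.45e-11), against 2.5 ± 0.22 for Atp5l, the highest of the 83 tested members.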
